A study of Mus musculus with 6 samples.

Results

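The natriuretic peptide genes of the mouse were read on 6 whole-genome Affymetrix arrays, 3 of cells labelled cardiac progenitor cells (CPC) and 3 of adult cardiomyocytes (Ctl). The members were the peptide genes Nppa, Nppb and Nppc, the receptor genes Npr1, Npr2 and Npr3, and the convertase gene Corin, and every probe set whose gene symbol in the deposited annotation equalled one of these names was taken. This gave 9 probe sets of 7 genes, out of 45037 probe sets of 20678 genes. Per the labels, CPC had arisen in prolonged culture from adult cardiomyocytes of bi-transgenic mice that had dedifferentiated and divided, and Ctl were cardiomyocytes of adult bi-transgenic mice, freshly isolated according to the growth protocol. The transgenes, the age in weeks and the treatment of the mice were not named for these arrays, so both groups share a bi-transgenic background that cannot be told apart from either. The labels speak of single cells and of direct cDNA synthesis with a NuGEN kit, and name no animal or culture. The p-values therefore measure only the spread between these arrays, which may be technical.

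Natriuretic peptides are hormones that heart muscle makes from larger precursors. Nppa encodes the precursor of atrial natriuretic peptide (ANP), which is stored in granules of atrial myocytes, and Nppb that of B-type natriuretic peptide (BNP), which is made in the ventricle under load. Corin is a protease of the myocyte surface that cuts pro-ANP into the active hormone. ANP and BNP act on Npr1, a receptor that makes cyclic GMP, C-type natriuretic peptide from Nppc acts on its relative Npr2, and Npr3 takes the peptides up and clears them. In the heart, Nppa and Nppb are widely used as markers of fetal or stressed myocardium.

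All values are log2 intensities on the RMA scale, and group values are means ± SD over 3 arrays. Differences are CPC minus Ctl in log2 units with a standard error (SE) from limma, and a probe set passed at an adjusted p under 0.05 over all 45037 probe sets. Arrays had medians between 7.32 and 7.47. A level at or under the lower quartile of its array (6.32 to 6.55) was read as background, by convention, since no detection calls were used. A fold against background counts such a level as the array's lower quartile and is written with "at least" where the difference passed. It is taken between group means. The "at least" refers to the unknown level under background and makes no allowance for the spread between arrays. Ctl arrays agreed more closely with each other (r of 0.93 to 0.97 over probe sets) than CPC arrays did (0.79 to 0.86). The 8 cardiomyocyte markers Myh6, Tnni3, Tnnt2, Actc1, Actn2, Ttn, Pln and Ryr2 lay between 6.11 and 8.96 on the CPC arrays and between 11.61 and 14.32 on the Ctl arrays, and all 8 fell. The 3′ minus 5′ difference of the Actb control, a sign of RNA length, was 0.0022 to 0.37 in CPC and -0.85 to -0.41 in Ctl. That of Gapdh was largest on CPC 3, at 3.53, against 2.09 and 2.55 on the other CPC arrays and 1.77 to 2.21 in Ctl.

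CPC had much less Corin and less Nppb message than Ctl, and no member rose. Corin fell by 4.01 and Nppb fell by 1.57 on the log2 scale, whereas Nppa, Nppc and the 3 receptor genes did not pass. Thus 2 of 9 probe sets were lower and 0 were higher. Over all probe sets 4.38% passed as lower and 1.06% as higher. At an unadjusted p under 0.05, 3 member probe sets were lower and 3 higher, beside 10.7% and 9.69% of all probe sets, and the same model without moderation passed 1 lower and 0 higher. The 3 negative differences were those of the hormone genes Nppa and Nppb and of Corin, and the 6 positive ones were those of Nppc and the receptors. The groups of arrays did not overlap for 6 of the 9 probe sets, 3 lower and 3 higher in CPC, where 31.5% of all probe sets had groups that did not overlap, 11.8% lower and 19.7% higher. The median difference was 0.46 over the member probe sets and 0.15 over all.

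**Figure D1:**
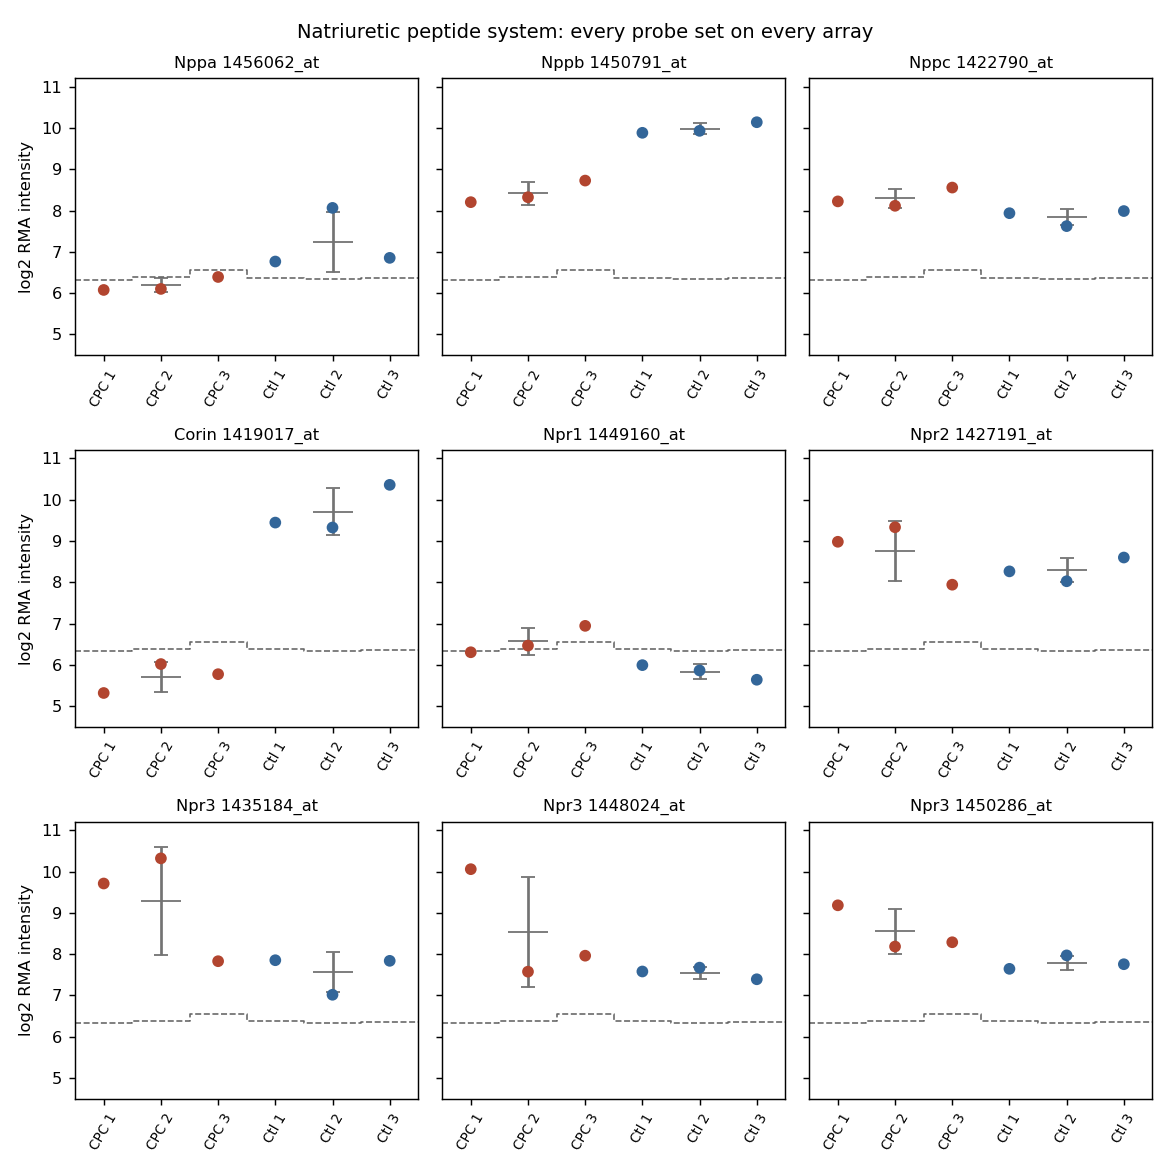
Log2 RMA intensity of the 9 probe sets on each of the 6 arrays (CPC red, Ctl blue), with the group mean and SD (n = 3) in grey and the lower quartile of each array as a dashed line. Corin was below the dashed line on all 3 CPC arrays and between 9.33 and 10.36 on the Ctl arrays, and Nppb was lower on every CPC array than on any Ctl array.

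Corin had the largest measured difference of the 7 genes. Its probe set 1419017_at measured 5.32, 6.02 and 5.77 on CPC 1, CPC 2 and CPC 3, against 9.45, 9.33 and 10.36 on Ctl 1, Ctl 2 and Ctl 3. All CPC arrays were at background and all Ctl arrays were far above it. The means were 5.70 ± 0.36 in CPC and 9.71 ± 0.57 in Ctl (SD, n = 3 each; difference -4.01, SE 0.34, adjusted p = 0.00193 by limma). With the CPC arrays at background this difference is a bound, and Corin was at least 9.79-fold lower in CPC. The call held when any 1 array was left out, with adjusted p from 0.00538 to 0.012. In arrays of this kind, fewer cells that express a gene and less RNA per cell cannot be told apart.

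The genes whose pattern over the 6 arrays lay nearest to that of Corin, by Euclidean distance between levels centred on each gene's own mean, were Art3, Slc47a1 and Ablim1. Art3 was at 6.27, 6.32 and 6.59 in CPC and at 10.12, 10.04 and 10.57 in Ctl, at a distance of 0.65. Slc47a1, a transporter of organic cations, and Ablim1, an actin-binding LIM protein, followed at 0.76 and 0.79. As with Corin, each of the 3 was highest on Ctl 3.

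Nppb also fell in CPC. Its probe set 1450791_at measured 8.20, 8.32 and 8.73 on CPC 1, CPC 2 and CPC 3, and 9.88, 9.93 and 10.14 on Ctl 1, Ctl 2 and Ctl 3. Every CPC array was below every Ctl array, and all 6 were above the array medians. The CPC levels were thus above the level read as background here. Without detection calls, this does not show how much BNP message remained in CPC. The means were 8.42 ± 0.27 in CPC and 9.98 ± 0.14 in Ctl (SD, n = 3 each; difference -1.57, SE 0.20, adjusted p = 0.0083 by limma), a 2.96-fold lower level. The call held when any 1 array was left out (adjusted p from 0.00664 to 0.0479) and ended without moderation of the variance, at adjusted p = 0.0507. The 95% interval of the difference was -2.04 to -1.09.

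Ptprm, a receptor tyrosine phosphatase, had the pattern nearest to Nppb at a distance of 0.26, followed by Dpp8, a dipeptidyl peptidase, and LOC100502705. Ptprm was at 9.38, 9.23 and 9.89 in CPC and at 11.06, 10.95 and 11.34 in Ctl. Within CPC, Nppb and Ptprm were both highest on CPC 3.

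Nppa, the neighbour of Nppb on chromosome 4 of the RefSeq assembly with no other protein-coding gene between them, was near background on most arrays. Its probe set 1456062_at measured 6.07, 6.10 and 6.39 in CPC, and 6.76, 8.06 and 6.85 on Ctl 1, Ctl 2 and Ctl 3. The 3 CPC arrays were at background, 2 Ctl arrays were just above it, and Ctl 2 alone was clearly higher. The groups did not overlap, at 6.19 ± 0.17 in CPC and 7.23 ± 0.73 in Ctl (SD, n = 3 each), but the difference of -1.04 (SE 0.37, 95% interval -1.94 to -0.13) did not pass (adjusted p = 0.198 by limma). It was -0.62 without Ctl 2 (adjusted p = 0.211). Against the background level, the means differed by 1.75-fold. This value leans on Ctl 2 and is no lower limit, since the difference did not pass.

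Ctl 2, the array with the high Nppa level, stood apart from the other Ctl arrays in markers of several cell types. Of the atrial markers, 2 were high there. Myl4, the atrial essential light chain of myosin, reached 9.50 on Ctl 2, against 7.83 on Ctl 1 and 7.87 on Ctl 3. Bmp10, a growth factor of the atrial wall, reached 7.81 there, against 6.91 and 6.80. The other 3 of the 5 atrial markers did not follow. Myl7 was at 6.41 on Ctl 2 between 6.34 and 6.74, Sln was at 6.67 between 6.65 and 6.73, and Nr2f2 was lowest on Ctl 2 at 7.34. Averaged over the 5 markers, the arrays ranged from 7.30 to 7.65 in CPC and from 7.24 to 7.55 in Ctl, and none of the 5 passed between the groups. Of the 4 ventricular markers, Myl2 (14.14 to 14.29) and Myl3 (14.25 to 14.39) were alike over the Ctl arrays, Irx4 was lowest on Ctl 2 at 7.53, against 8.48 on Ctl 1 and 7.69 on Ctl 3, and Hey2 was highest there at 7.27, against 6.95 and 6.91. Some vessel and stromal markers were low on Ctl 2, and others were not. The 8 endothelial markers averaged 7.49 there, against 8.33 on Ctl 1 and 8.76 on Ctl 3, with Tek at 7.09, against 10.33 and 9.85. The pericyte marker Kcnj8 was at 5.89, against 9.37 and 8.85, and the fibroblast collagen gene Col3a1 at 8.15, against 10.60 and 11.15. Pecam1, Egfl7, Tagln, Cspg4, Ddr2, Col1a1 and Postn of the same lists were not lowest on Ctl 2. The part of these cell types in the Nppa value was not tested. Ndnf had the pattern nearest to Nppa (distance 0.20), with 7.88 on Ctl 2 and 6.65 and 6.87 on Ctl 1 and Ctl 3, and the next were 5230400M03Rik and Mrps28.

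**Figure D2:**
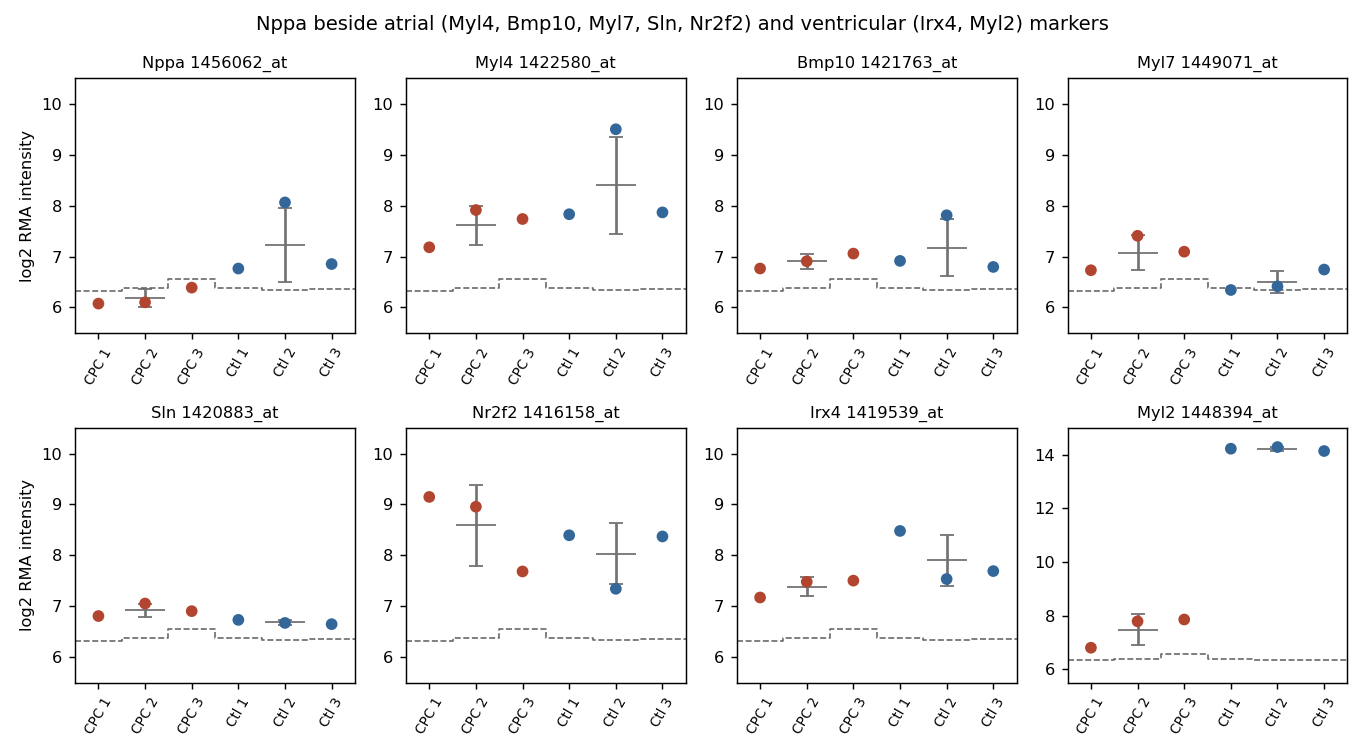
Log2 RMA intensity of Nppa, 5 atrial markers and the ventricular markers Irx4 and Myl2 on each array (CPC red, Ctl blue; grey, mean and SD, n = 3; dashed, lower quartile of the array; the axis of Myl2 spans a wider range). Nppa, Myl4 and Bmp10 were highest on Ctl 2, whereas Myl7, Sln, Nr2f2 and Irx4 were not. Myl2 was alike over the Ctl arrays (14.14 to 14.29) and by a small margin highest on Ctl 2. The ventricular markers Hey2, highest on Ctl 2, and Myl3 are not drawn.

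Nppc, whose product acts locally in vessel and bone rather than as a heart hormone, did not pass. Its probe set 1422790_at measured 8.22, 8.11 and 8.56 in CPC, and 7.93, 7.62 and 7.99 in Ctl. Every CPC array was above every Ctl array by a small margin. The means were 8.30 ± 0.23 in CPC and 7.85 ± 0.20 in Ctl (SD, n = 3 each; difference 0.45, SE 0.19, 95% interval -0.025 to 0.92, adjusted p = 0.263 by limma).

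The RefSeq promoter windows of Nppb, Nppa and Corin are printed because Nppb and Corin were the 2 genes that fell and Nppa is the neighbour of Nppb. Each runs from 250 bases before the annotated start to 50 after it on build GRCm38.p6, 5′ to 3′ on the gene's strand. Capitals mark the GATA core GATAA and the MCAT core CATTCC, the letters bound by GATA and TEAD factors, on either strand. The windows are chr4:147985650-147985949 for Nppb (+ strand), chr4:148000472-148000771 for Nppa (+ strand) and chr5:72504491-72504790 for Corin (- strand).
Nppb: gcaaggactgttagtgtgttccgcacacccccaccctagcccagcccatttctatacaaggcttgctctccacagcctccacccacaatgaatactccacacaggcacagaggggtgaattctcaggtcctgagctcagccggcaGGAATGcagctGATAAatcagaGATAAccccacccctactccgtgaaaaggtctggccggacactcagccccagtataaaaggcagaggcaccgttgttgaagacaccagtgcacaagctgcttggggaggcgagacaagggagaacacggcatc
Nppa: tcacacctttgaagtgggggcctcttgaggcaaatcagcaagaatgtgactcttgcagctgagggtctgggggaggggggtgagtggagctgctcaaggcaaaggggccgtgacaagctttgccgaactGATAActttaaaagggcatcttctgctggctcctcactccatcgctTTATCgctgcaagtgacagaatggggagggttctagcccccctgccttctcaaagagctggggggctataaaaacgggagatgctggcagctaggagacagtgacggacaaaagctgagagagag
Corin: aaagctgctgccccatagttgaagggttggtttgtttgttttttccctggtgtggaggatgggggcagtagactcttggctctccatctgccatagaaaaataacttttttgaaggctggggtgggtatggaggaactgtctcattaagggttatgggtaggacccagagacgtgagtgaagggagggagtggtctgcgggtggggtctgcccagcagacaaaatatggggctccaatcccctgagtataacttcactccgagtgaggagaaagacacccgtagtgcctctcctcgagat

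GATAA lay in the Nppb window at -94 and -83 and in the Nppa window at -121 and, on the opposite strand, at -75. CATTCC lay in the Nppb window at -105 on the opposite strand, and no match overlapped another. Among 32851 RefSeq windows of the same length, 25.4% held GATAA and 14.7% held CATTCC on either strand. The NKE letters TNAAGTG, bound by NK-2 homeobox factors, were found in the Nppa window at -241 and in 11.5% of all windows. The serum response element, searched as a single fixed sequence, was in none of the member windows and in 0.0639% of all. None of these 4 motifs was found in the windows of Corin, Nppc or the receptors, which says only that these letters are not there.

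Among the receptors, Npr1, the cyclase for ANP and BNP, was at or near background throughout. Its probe set 1449160_at measured 6.30, 6.47 and 6.94 in CPC, and 5.99, 5.86 and 5.64 in Ctl. All 3 Ctl arrays and CPC 1 were at background, and the groups did not overlap. The means were 6.57 ± 0.33 in CPC and 5.83 ± 0.18 in Ctl (SD, n = 3 each; difference 0.74, SE 0.22, 95% interval 0.20 to 1.28, adjusted p = 0.139 by limma), a 1.16-fold difference against background that did not pass. Its nearest patterns were those of Grap2 (distance 0.058), 4930404N11Rik and Tjp3, each highest on CPC 3.

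Npr2, the cyclase for C-type natriuretic peptide, was above the array medians on all arrays. Its probe set 1427191_at measured 8.98, 9.33 and 7.94 on CPC 1, CPC 2 and CPC 3, and 8.27, 8.03 and 8.60 in Ctl. CPC 1 and CPC 2 were above the Ctl arrays and CPC 3 was below them. The difference was 0.46 (SE 0.39, 95% interval -0.48 to 1.40, adjusted p = 0.502 by limma). Leaving out CPC 3 gave 0.86 (adjusted p = 0.129), whereas leaving out CPC 2 gave 0.16 (adjusted p = 0.82). Fbxo38, Pafah1b2 and the chaperone gene Hsp90aa1 had the nearest patterns, at distances of 0.27 to 0.35.

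Npr3, the clearance receptor, was read by 3 probe sets that disagreed on which CPC array was high. Probe set 1435184_at measured 9.71, 10.32 and 7.83 on CPC 1, CPC 2 and CPC 3, against 7.85, 7.01 and 7.84 in Ctl. Here CPC 1 and CPC 2 stood well above Ctl and CPC 3 lay among the Ctl arrays. Probe set 1448024_at measured 10.06, 7.57 and 7.96 in CPC, against 7.58, 7.67 and 7.39 in Ctl, so that CPC 1 alone was clearly high. Probe set 1450286_at measured 9.18, 8.18 and 8.29 in CPC, against 7.64, 7.97 and 7.75 in Ctl, with all CPC arrays above all Ctl arrays.

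CPC 1 was thus high on all 3 Npr3 probe sets, and CPC 2 clearly so on 1 of them. None passed with limma. The differences were 1.72 (SE 0.66, 95% interval 0.12 to 3.32, adjusted p = 0.22) for 1435184_at, 0.98 (SE 0.64, -0.57 to 2.54, adjusted p = 0.404) for 1448024_at and 0.76 (SE 0.30, 0.035 to 1.49, adjusted p = 0.228) for 1450286_at. Over the mean of the 3 probe sets the difference was 1.15 (adjusted p = 0.14). Without CPC 3 the first was 2.45 higher and passed (adjusted p = 0.0253, range over leaving out each array 0.0253 to 0.431), and without CPC 1 the second was at 0.22 (adjusted p = 0.471). The patterns nearest to 1435184_at were those of Rbm34 (distance 0.26), Spry2, a feedback inhibitor of receptor tyrosine kinase signalling, and Ext1, an enzyme of heparan sulfate synthesis.

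Vessel and stromal cells also express natriuretic peptide receptors, and some of their markers differed between the same arrays. Tagln, a smooth muscle marker, read 10.76, 11.83 and 8.54 across CPC 1, CPC 2 and CPC 3, against 7.75 to 8.08 in Ctl, the same order within CPC as Npr2 and Npr3 1435184_at, and was singled out after its values were seen. Other markers of the list ran differently within CPC. Acta2 was lowest on CPC 1 (9.24, 12.07 and 11.75), Pdgfrb was lowest on CPC 2 (10.07, 9.31 and 10.36), and Myh11 (8.03, 8.54 and 8.73) and Cnn1 (6.47, 6.63 and 6.81) were highest on CPC 3. The 8 smooth muscle and pericyte markers averaged 8.38 to 8.81 per array in CPC and 8.04 to 9.05 in Ctl. None of them passed as higher, and Kcnj8 was at background on all CPC arrays. At an unadjusted p under 0.05, 3 were higher (Acta2, Tagln and Pdgfrb) and 1 lower, beside 11.0% and 10.2% of all genes. Rgs5 fell (adjusted p = 0.0311), a call that ended without any 1 array other than Ctl 2 (adjusted p up to 0.126). The 8 fibroblast markers averaged 9.35 to 9.81 in CPC and 7.75 to 8.64 in Ctl, and 2 rose (Col1a1 and Col1a2). At an unadjusted p under 0.05, 4 fibroblast markers were higher and 0 lower. The call of Col1a2 ended without CPC 1, CPC 3, Ctl 1 or Ctl 2 (adjusted p up to 0.122), and that of Col1a1 held without any 1 array. The 8 endothelial markers averaged 7.60 to 8.00 in CPC and 7.49 to 8.76 in Ctl, and none passed with limma, nor at an unadjusted p under 0.05. Itgam was at background on every array of both groups among the 6 macrophage markers, and none of those passed with limma (1 higher at an unadjusted p under 0.05). Of 5 measured neuron and adipocyte markers, 1 rose (Tubb3, adjusted p = 0.0323), a call that ended whichever array was left out (0.0548 to 0.127), and Snap25 and Adipoq were at background on every array. The part of other cell types in the receptor values was not tested.

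**Figure D3:**
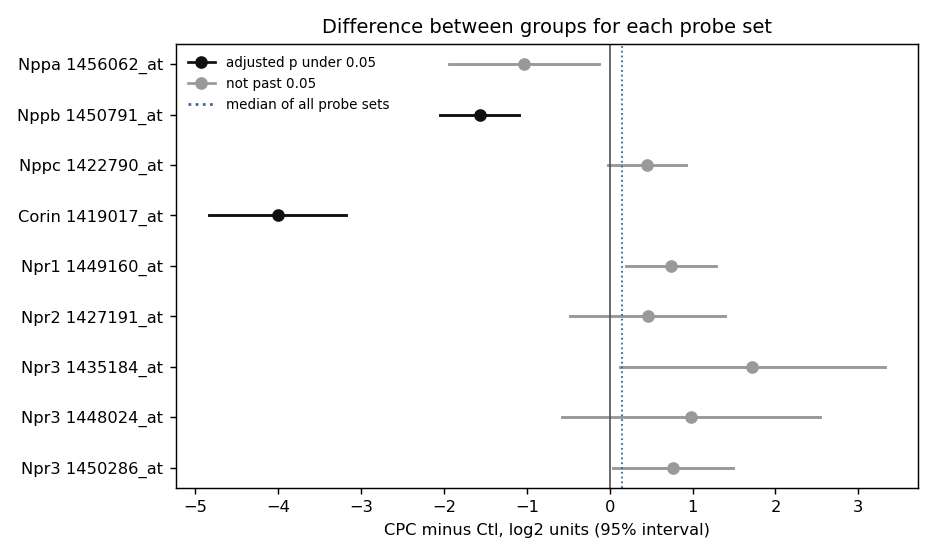
Difference CPC minus Ctl in log2 units for each of the 9 probe sets, with the 95% interval of the limma fit (black, adjusted p under 0.05; grey, not past it) and the median of all probe sets as a dotted line at 0.15. Corin (-4.01) and Nppb (-1.57) were the 2 probe sets past the threshold, and the widest intervals were those of Npr3 1435184_at and 1448024_at.

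Around these members, 78 further genes of the pathway were listed in 7 groups and 72 were measured. In CPC, 7 of the 72 fell, none rose and 65 did not pass, each gene being read at its brightest probe set on average. Some of the 65 had another probe set that passed. These were lower for Tbx20 (1 of 3), Mef2a (3 of 6), Ide (1 of 5), Ppp1r12a (1 of 4) and Hand2 (1 of 3). For Lif, 1 of 2 was higher. Over all genes 4.47% passed as lower and 1.15% as higher. At an unadjusted p under 0.05, 14 were lower and 8 higher, beside 10.2% and 11.0% of all genes, and without moderation 2 were lower and 0 higher. The median difference of the 72 genes was 0.090, against 0.19 over all genes. Leaving out Ctl 1 or Ctl 3 left 4 falls, and leaving out CPC 1 gave 2 rises.

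Of 9 genes for secretory granules and prohormone handling, Pam fell and none rose. Pam encodes the peptide-amidating enzyme that is a major membrane protein of atrial granules. It was at 7.68, 7.45 and 7.78 in CPC, against 11.51, 12.14 and 11.72 in Ctl (difference -4.15, SE 0.22, adjusted p = 0.000388 by limma). The groups were far apart, and the call held without any 1 array. Cpe, carboxypeptidase E, was at 11.95, 9.55 and 7.85 across CPC 1, CPC 2 and CPC 3, against 12.51 to 12.62 in Ctl. Its difference did not pass (adjusted p = 0.186). It was named after its values were seen.

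Of 9 genes for processing and clearance, none passed with limma. Before adjustment, at p under 0.05, 0 were lower and 2 higher, beside 10.2% and 11.0% of all genes. The smallest p was that of Klk1, tissue kallikrein, at a difference of 1.07 (adjusted p = 0.0912), on a probe set that can match other kallikrein genes. Furin, which cuts pro-BNP, was at 9.44, 8.88 and 8.95 in CPC and 8.82, 8.92 and 9.06 in Ctl (0.16, adjusted p = 0.65). Mme, neprilysin, which degrades the peptides, was at -0.098 (adjusted p = 0.843). Furin and Mme were chosen for their role after the values were seen. None of 6 other guanylyl cyclases passed (0 at an unadjusted p under 0.05), and the smallest p was that of Gucy2e, at background on all Ctl arrays, with 0.43 (adjusted p = 0.331).

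Downstream of the receptors, 2 of 10 phosphodiesterases of cyclic GMP fell. Pde3a, which cyclic GMP inhibits, was at 8.49, 7.45 and 7.89 in CPC, against 10.21, 9.74 and 10.47 in Ctl (-2.20, SE 0.33, adjusted p = 0.0153 by limma). Pde1c, which calcium and calmodulin activate, was at 8.90, 8.67 and 9.74 in CPC, against 11.02, 11.35 and 10.88 in Ctl (-1.98, SE 0.32, adjusted p = 0.0201). The groups of both were apart. Neither call held throughout, since that of Pde3a ended without Ctl 1 or Ctl 3 and that of Pde1c when CPC 1 or a single Ctl array was omitted. Averaged over its probe sets, Pde3a was at -0.93 and still passed (adjusted p = 0.0136).

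Of 10 measured effectors, Rgs2, a regulator of G protein signalling that the cyclic GMP kinase activates, fell. It was at 8.19, 8.20 and 9.17 in CPC, against 11.37, 11.27 and 11.21 in Ctl (-2.76, SE 0.30, adjusted p = 0.00483 by limma), and held without any 1 array. Prkg1, the cyclic GMP kinase, did not pass (-1.26, adjusted p = 0.341). On Ctl 2, the array with the highest Nppa level, it was at 10.53, against 7.94 and 8.55 on Ctl 1 and Ctl 3. Prkg1 was named after its values were seen.

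Of 16 factors known to act on the Nppa or Nppb promoter, Myocd (-3.91) and Mef2c (-2.06) fell and none rose. The call of Mef2c at this probe set ended without CPC 2, Ctl 1 or Ctl 3. Of its 5 probe sets, however, 4 passed as lower. Over the mean of its probe sets Mef2c was at -2.75 and passed (adjusted p = 0.000247 by limma). Factors of the motifs printed above did not pass, with values, chosen for that role, of -0.092 for Gata4 (adjusted p = 0.74), -0.19 for Gata6 (adjusted p = 0.523), 0.25 for Nkx2-5 (adjusted p = 0.458), -0.44 for Srf (adjusted p = 0.318) and -2.36 for Tead1 (adjusted p = 0.227). Tead1 read 10.12, 10.96 and 7.26 across CPC 1, CPC 2 and CPC 3, against 11.50 to 12.02 in Ctl. Averaged over their probe sets, Gata4 was at 0.15, of the opposite sign, and Gata6 at -0.16. Srf was then at -0.041 and Tead1 at -1.74, and none of these means passed with limma.

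Of 12 hormonal inducers of the peptides and their receptors, Ednra fell. It encodes the endothelin A receptor, and endothelin is a strong stimulus for ANP and BNP. It was at background in CPC, at 5.51, 5.96 and 6.47, against 8.28, 8.18 and 9.01 in Ctl (-2.51, SE 0.34, adjusted p = 0.0106 by limma), at least 4.198-fold lower, and held without any 1 array. Only 1 of its 4 probe sets passed. Averaged over its probe sets, Ednra was at -1.14 and still passed (adjusted p = 0.0304 by limma). At an unadjusted p under 0.05, 4 of the 12 were higher and 2 lower, beside 11.0% and 10.2% of all genes.

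**Figure D4:**
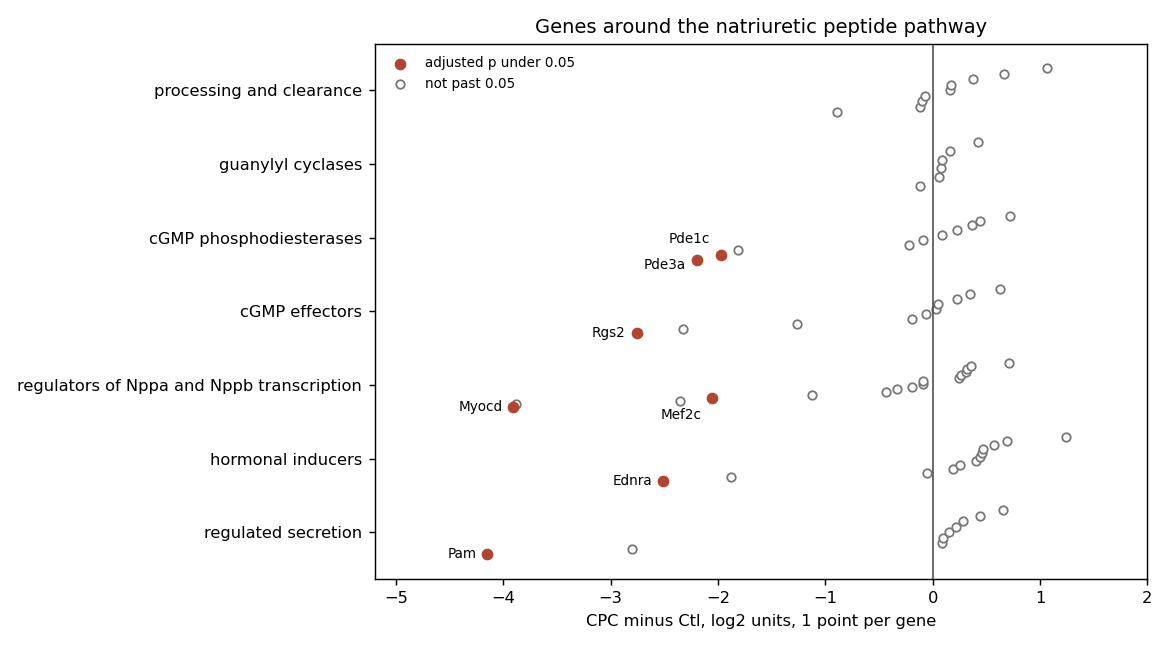
Difference CPC minus Ctl in log2 units for the 72 measured genes of the 7 pathway groups, 1 point per gene at its brightest probe set on average (filled and named, adjusted p under 0.05; open, not past it). The 7 named genes lay between -4.15 (Pam) and -1.98 (Pde1c), and no gene was higher past the threshold.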

How the data were processed

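Per the labels, RNA of 6 samples (3 CPC, 3 Ctl) was amplified with a NuGEN kit and hybridised to Affymetrix mouse expression arrays, 1 array per sample. The deposited values were log2 intensities from the authors' RMA, a method that corrects background, equalises the distributions of the arrays and summarises the probes of each set. The processing notes list Partek too, and versions and a genome build are not given in the sources used here. The annotation table the authors deposited also holds columns of their own comparison (fold change, p-value and step-up value), which were not used. Its gene symbol column, in no unit of its own (other), chose the members.

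The deposited log2 values were used unchanged. After 64 Affymetrix controls were set aside, 45037 probe sets were compared as CPC minus Ctl with lmFit and eBayes of limma 3.58.1 (R 4.3.3, two-sided) and Benjamini-Hochberg adjustment, and the threshold was an adjusted p of 0.05. Each gene took the value of whichever of its probe sets was brightest on average over the 6 arrays, among 38016 probe sets that name 1 gene; 3174 of their symbols were updated by gene identifier through RefSeq (GRCm38.p6). Distances for the nearest patterns were taken for members with a range above 1 log2 unit over the arrays, and Nppc fell short of this. All members were named. From each list every gene past the threshold was named, or the 1 with the smallest p. The members and lists were chosen with earlier results of these data known. Promoter windows were taken from RefSeq, where all 7 genes matched. The fit was tested on simulated arrays. The number of arrays limits the precision. The alternatives tried were median centring, a further quantile normalization, testing bright probe sets alone, a trended or no variance prior, weighted arrays, the replicate number as a block, other rules for a gene's probe set, other thresholds and omitting each array.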

Additional observations from a re-analysis of the deposited data

How the results depend on the processing

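Corin and Nppb kept their direction under every alternative run, and Corin passed under all of them. Nppb was -1.57 and did not pass without moderation (adjusted p = 0.0507), so that 1 member probe set and 1 member gene were lower there. The replicate numbers do not pair the samples (correlation of same-numbered deviations -0.0471, -0.0133 and -0.108). With the replicate number as a block Corin was at -4.01 (adjusted p = 0.0134) and Nppb at -1.57 (adjusted p = 0.0338), and 6 pathway genes were lower in place of 7. Weights per array, which ranged from 0.231 for CPC 3 to 5.92 for CPC 2 and so rest on CPC 2 more than on any other array, passed more members, Nppa at -0.90, Npr1 at 0.58, Npr2 at 0.97 and Npr3 1435184_at at 2.50. This gave 3 member probe sets (3 genes) higher, and 14 pathway genes higher and 15 lower. The shares of all probe sets and genes were taken for the main fit alone. Counts under the weights and the other fits thus cannot be set against the rest of the array. Without moderation 2 pathway genes were lower, and over the mean of a gene's probe sets 10 were lower and 1 was higher. At an unadjusted p under 0.05, 3 member probe sets (2 genes) were higher. Leaving out each array gave 0 to 1 member probe set and 0 to 1 member gene higher, a difference of 1.20 to 2.45 for Npr3 1435184_at, and 0 to 2 pathway genes higher and 4 to 9 lower. When the dimmer part of the probe sets was set aside, Nppa and Npr1 gave no value. The cause of these shifts was not tested. Signal over background limits Corin, Nppa and Npr1, whose lower group was at background on all 3 arrays.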

Other observations

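CPC 1 stood apart from the other CPC arrays for several genes of the lists, which were picked after their values were seen. Npr3 1448024_at was at 10.06 on CPC 1, against 7.57 and 7.96 on CPC 2 and CPC 3. Abcc4, an exporter of cyclic nucleotides, was at 9.93 on CPC 1, against 7.71 and 8.09. The fibroblast and epicardial factor Tcf21 was at 10.89, against 6.89 and 7.94, and the endothelial receptor Flt1 was at 10.62, against 7.60 and 7.86. Among CPC arrays, Dcn and Tek of the same marker lists were also highest on CPC 1. Pecam1, Cdh5, Tie1, Emcn, Pdgfra, Ddr2 and Col1a1 went the other way and were lowest there. The Ctl arrays lay between 7.39 and 7.67 for Npr3 1448024_at, 7.71 and 8.07 for Abcc4, 6.23 and 6.69 for Tcf21, and 7.26 and 9.09 for Flt1. None of these 4 passed between the groups.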
